A study of Mus musculus with 31 samples.

Results

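Gm10800, Gm10801 and Gm10720 are 3 predicted mouse genes among the 60172 gene IDs of the 3 count tables. They were chosen by their counts in WT Panc02 cells, which were higher in 3D than in 2D culture, so that difference is given here as a description with no test. Panc02 is a murine pancreatic adenocarcinoma line. In the 2D and 3D table, WT and Cxcl5-/- cells were grown in 2D or as spheroids in Matrigel, which made 4 groups of 3 samples. The Cxcl5-/- cells were made with a lentiviral CRISPR vector carrying a guide against Cxcl5 and were selected with puromycin, and whether they are 1 clone is not stated. In the conditioned medium table, WT spheroids in Matrigel were kept in control medium (Ctrl) or in medium conditioned by untreated macrophages (M0-CM) or by macrophages treated with IFNγ and LPS (M1-CM), with 3 samples each. The rescue table held 10 further 3D samples, 2 WT, 2 Cxcl5-/-, 3 of Cxcl5-/- cells overexpressing mutant Hif1a and 3 of Cxcl5-/- cells overexpressing Myc from retroviral vectors. All 3 members had a row in the first 2 tables, and none was matched by symbol or ID in the rescue table, so they were not analysed there. The study describes its experiments in general as biological replicates, but neither it nor the labels say which sequenced samples were separate cultures, and p-values measure the spread between these samples. The labels give each rescue sample a cell line name of its own, from Panc03 to Panc12, while the study names Panc02. In bulk RNA, fewer cells carrying a transcript and less of it per cell cannot be told apart.

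Mouse pericentromeric heterochromatin is built on long tandem arrays of an AT-rich repeat, the major satellite. The arrays are kept compact by the histone methyltransferases Suv39h1 and Suv39h2, by the HP1 proteins that bind their mark and by DNA methylation, and satellite transcripts are known to be raised in several tumours, pancreatic cancer included. Genome assemblies hold fragments of these arrays, and some fragments carry predicted genes. Reads from other copies of the repeat can be counted in such a gene, so a count in it cannot be assigned to its locus alone.

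In the GENCODE M21 annotation of GRCm38, the build to which the authors aligned, Gm10801 (ENSMUSG00000075015) lies at chr2:98662237-98664083 on the plus strand and Gm10800 (ENSMUSG00000075014) at chr2:98666547-98667301 on the minus strand, 2463 bases apart. Gm10720 (ENSMUSG00000074564) lies at chr9:3015654-3017210 on the plus strand. Their exons are annotated as coding throughout, with no UTR, and sum to 660 bases for Gm10800, 504 for Gm10801 and 669 for Gm10720. The annotated sequences are not complete reading frames. Gm10801 does not start with ATG, and no member holds a stop codon when read from its first base. The last exons of the members are shown because they can be set against each other base by base. Each has 123 bases, and capitals mark the 14 positions that are not the same in all 3.

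Gm10800 exon 5, chr2:98666547-98666669, minus strand: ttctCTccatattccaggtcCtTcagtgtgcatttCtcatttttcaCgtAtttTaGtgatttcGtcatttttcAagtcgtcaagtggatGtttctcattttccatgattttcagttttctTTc

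Gm10801 exon 4, chr2:98663961-98664083, plus strand: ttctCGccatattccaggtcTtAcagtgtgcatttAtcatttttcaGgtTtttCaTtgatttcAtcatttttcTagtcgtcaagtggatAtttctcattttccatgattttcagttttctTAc

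Gm10720 exon 5, chr9:3017088-3017210, plus strand: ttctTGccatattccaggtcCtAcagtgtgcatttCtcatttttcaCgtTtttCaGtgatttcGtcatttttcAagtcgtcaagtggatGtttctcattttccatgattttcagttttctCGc

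The last exon of Gm10800 differed from that of Gm10801 at 12 positions and from that of Gm10720 at 7, and those of Gm10801 and Gm10720 differed at 10. Over the aligned parts of the whole transcripts, identity was 93.3% between Gm10800 and Gm10801, 93.9% between Gm10800 and Gm10720 and 93.6% between Gm10801 and Gm10720. The sequence also repeats within each member. Shifted against itself by 20 to 300 bases, Gm10800 matched itself best at 225 bases, Gm10801 at 231 and Gm10720 at 234, with 56.3%, 52.7% and 66.4% identical bases against medians over all shifts of 30.7%, 31.7% and 31.8%. Exon 3 of Gm10720 is shown because both ends of such a repeat lie within it. Capitals mark its first and last 39 bases, which lie 234 bases apart and are identical at 32 of the 39 positions.

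Gm10720 exon 3, chr9:3016461-3016733, plus strand: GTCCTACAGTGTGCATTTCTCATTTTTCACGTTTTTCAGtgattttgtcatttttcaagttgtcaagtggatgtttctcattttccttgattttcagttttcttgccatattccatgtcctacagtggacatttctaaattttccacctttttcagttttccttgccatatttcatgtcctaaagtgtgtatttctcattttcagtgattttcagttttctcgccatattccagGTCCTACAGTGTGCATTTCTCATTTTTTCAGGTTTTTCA

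The 3 members were 34.3% to 35.9% GC. They shared 1 run of 41 bases, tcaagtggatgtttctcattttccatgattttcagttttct, which can be read in the last exons of Gm10800 and Gm10720 above. This run was found in 19 of 141767 annotated transcripts, or 0.0134%, and in 0.074% of the 21634 transcripts of 500 to 700 bases. By shared runs of 31 bases, 13 of the 55450 annotated genes were related in sequence to a member, the members included. Of these, 9 lie side by side on the plus strand of chromosome 9 within 37.4 kb from base 3000922 to base 3038316, Gm21738 lies on chromosome 14, and Gm26870, a long noncoding RNA, lies on the opposite strand of the chromosome 9 block and had no row in any table used here. The counts of the members are therefore uncertain as to locus. Only 5.63% of the 31-base runs of Gm10720 were in no other gene of the family, against 58.0% for Gm10800 and 63.8% for Gm10801, and whether the counting used strand is not stated.

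In 2D culture the members had few counts, and Gm10720 had none. Gm10800 had 305, 603 and 226 counts in the 2D WT samples and 168, 454 and 1049 in the 2D Cxcl5-/- samples, out of 51905908 to 72361685 counts in a library. Gm10801 had 30, 37 and 14 counts in 2D WT and 18, 44 and 76 in 2D Cxcl5-/-. Gm10720 had 0 counts in every 2D sample, which at 3 counts allows up to 0.0578 CPM in the shallowest of them, for counting error only. The 2D genotypes overlapped for Gm10800 and Gm10801. The mean level of Gm10800 was 5.89 ± 2.76 CPM (the usual count per library size, here TMM-scaled, SD, n = 3) in 2D WT and 8.65 ± 6.93 CPM in 2D Cxcl5-/-.

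In 3D WT spheroids Gm10800 became one of the largest rows of the table. It had 3789281, 3917048 and 9594399 counts, or 6.33%, 8.34% and 14.5% of all counts in the 3 libraries, and was the gene with most counts in 2 of them and the second in the other. Gm10801 had 194709, 195093 and 504211 counts and Gm10720 had 2539, 2973 and 6800. Replicate 3 was the highest library for all 3 members and replicate 1 the lowest. The group means were 113928 ± 55279 CPM for Gm10800, 5875 ± 2989 CPM for Gm10801 and 81.3 ± 39.5 CPM for Gm10720 (SD, n = 3). Against 2D WT, the ratio of mean CPM was 19327 for Gm10800 and 13514 for Gm10801, and Gm10720 was at least 1711-fold higher, taking 3 counts per library for the 2D samples. These are the values that chose the members. All 3D WT samples lay above all 2D WT samples for the 3 members, as for 26.8% of all genes tested, and nothing is read from this.

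The libraries labelled 3D Cxcl5-/- were lower. Gm10800 had 268738, 157276 and 192155 counts there, or 0.429%, 0.334% and 0.340% of the library, and ranked 14, 17 and 18 among all genes by count. Gm10801 had 16529, 9538 and 11654 counts and Gm10720 had 153, 87 and 127. The lowest 3D WT library exceeded the highest 3D Cxcl5-/- library for each member, as for 28.8% of all genes tested, and since 3D WT was used to choose the members this is a description. The mean of 3D WT was 34.5 times that of 3D Cxcl5-/- for Gm10800, 29.2 times for Gm10801 and 41.6 times for Gm10720. The WT spheroids of the conditioned medium table, which was scaled separately, did not reach the 3D WT levels. Gm10800 ran from 22.1 to 14361 CPM there, against 73430 CPM in the lowest 3D WT library. Those WT spheroids lay on both sides of the 3D Cxcl5-/- range of 2725 to 4238 CPM. The cause of this difference between WT spheroids was not tested. Cxcl5 itself, the targeted chemokine gene, went against the label in 3D. Its level ran from 24.5 to 28.5 CPM in 3D WT and from 40.9 to 65.5 CPM in the libraries labelled 3D Cxcl5-/-. In 2D it ran from 45.6 to 49.1 CPM in WT and from 32.7 to 37.4 CPM in Cxcl5-/-. A transcript level does not show whether the protein is made. For the protein, the study reports an immunoblot for CXCL5 as its check of the knockout. Other genes differed between the 3D genotypes without overlap. Hif1a, a subunit of the hypoxia-inducible factor, stood at 335.9 to 407.2 CPM in WT spheroids and 139.9 to 175.4 CPM in Cxcl5-/- spheroids, and Myc, a growth-regulating transcription factor, at 33.9 to 36.9 and 9.12 to 11.4 CPM.

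**Figure D1:**
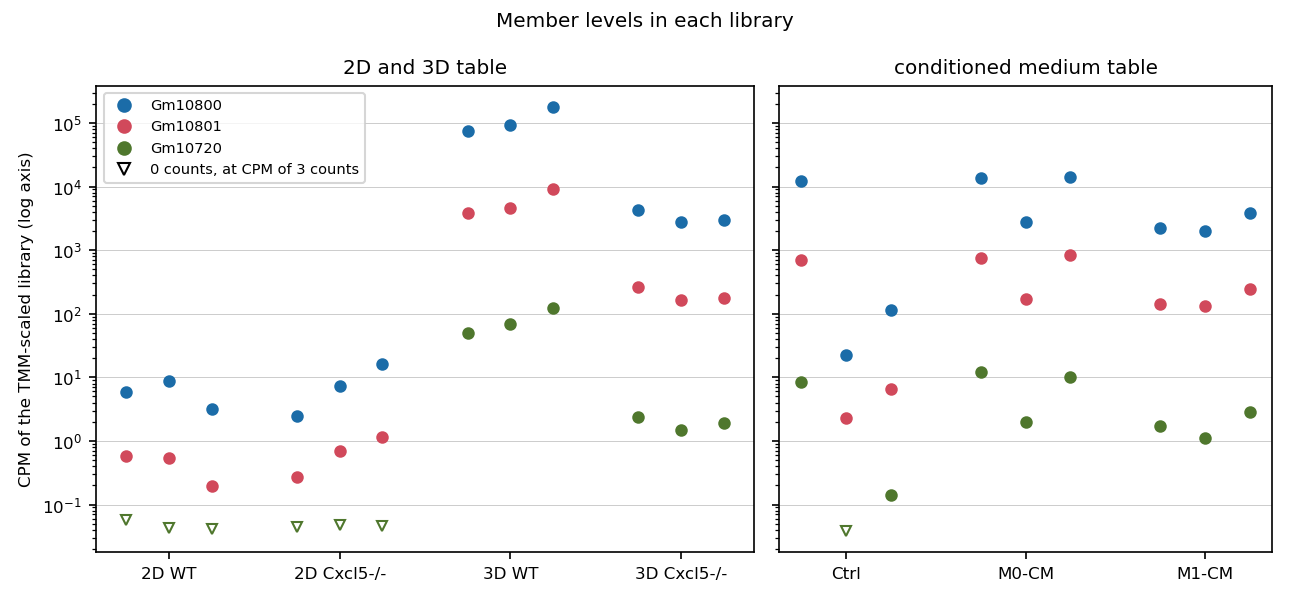
Level of each member in each library, in CPM of the TMM-scaled library on a log axis, with 1 point per library and libraries of a group in replicate order from left to right. Open triangles are libraries with 0 counts, drawn at the level of 3 counts. The 3D WT libraries reach 73430 to 176905 CPM for Gm10800, and the 3 Ctrl libraries spread from 22.1 to 12446 CPM.

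The comparison of 3D and 2D culture within Cxcl5-/- cells used neither of the groups that chose the members. It asked whether the members were also higher in 3D where Cxcl5 was targeted. All 3 rose, against a background of 28.7% of the 21367 genes tested that rose in this comparison at an adjusted p under 0.05 (edgeR quasi-likelihood test, Benjamini-Hochberg). Gm10800 went from 8.65 ± 6.93 CPM in 2D to 3299 ± 820 CPM in 3D (SD, n = 3), or 8.58 on the log2 scale with an SE of 0.70 (edgeR, adjusted p = 2.45e-07). Gm10801 went from 0.715 ± 0.452 to 201.3 ± 51.8 CPM, or 8.14 on the log2 scale with an SE of 0.52 (edgeR, adjusted p = 2.48e-08). Gm10720 went from 0 counts in every 2D library to 1.95 ± 0.45 CPM, at least 42.2-fold higher at 3 counts per library (adjusted p = 2.36e-05 by edgeR). With 0 counts in 2D, it passed the count filter only through 3D libraries, so its call is not taken as support. Each 3D library lay above each 2D library for all 3 members, which was so for 33.6% of all genes tested. All 11 family rows of this table, the members included, also rose, with log2 fold changes from 6.61 to 8.58 in the 10 with a count in 2D Cxcl5-/-. The median of the 11 was 7.74 as fitted and 7.63 with Gm10720 at its bound, where the median of all genes tested was 0.109. Most of these rows had few counts in 2D and, like Gm10720, passed the count filter only through 3D libraries. Neither their rise nor this median is therefore taken as support. Where at least 10 counts were required in every sample, 3 family rows kept a value, and these rose by 7.75 to 8.70 on the log2 scale. The family rows share reads and sequence and are not independent of each other.

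The members held the same places in the order of the family in both 3D groups. Per kilobase of exon, Gm10800 was the highest of the 11 rows in 3D WT at 172619 ± 83756 CPM per kb (SD, n = 3), followed by Gm10801 at 11657 ± 5931 and Gm10722 at 3510 ± 1740. The ranges of Gm10800 and Gm10801 in 3D WT did not overlap, and neither did those of Gm10801 and Gm10722. Gm10720 was at place 10 with 121.6 ± 59.0 CPM per kb, next to Gm10721 at 287.5 ± 196.3 and Gm10715 at 98.1 ± 59.2, and its libraries overlapped those of both. The annotated length of a member is that of its predicted transcript and says nothing of the length of the RNA that gave the reads.

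In the conditioned medium table the members differed more within Ctrl than between the media. Gm10800 had 771329, 1743 and 6492 counts in the Ctrl samples, 921695, 167049 and 841065 with M0-CM and 141230, 98693 and 212596 with M1-CM. Ctrl replicate 1 thus sat with the highest M0-CM libraries, and Ctrl replicates 2 and 3 sat below every M0-CM and M1-CM library. Within Ctrl the highest level was 562 times the lowest, within M0-CM 5.16 times and within M1-CM 1.92 times. Gm10801 followed with 43410, 181 and 371 counts in Ctrl, 52325, 10109 and 49382 with M0-CM and 8813, 6452 and 13216 with M1-CM. Gm10720 had 525, 0 and 8 counts in Ctrl, 824, 119 and 604 with M0-CM and 108, 55 and 155 with M1-CM. The same library, Ctrl replicate 1, was the high one of its group for all 3 members.

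No conditioned medium comparison passed the test for a member. Between M1-CM and Ctrl, 0 of the 3 members were called, where 0.0156% of the 19207 genes tested were called higher and 0% lower. The log2 fold changes were -0.62 for Gm10800 (SE 1.57), -0.46 for Gm10801 (SE 1.496) and -0.59 for Gm10720 (SE 1.48), with adjusted p from 0.977 to 0.980 by edgeR. Ctrl replicate 1 decided their sign. The groups overlapped for every member, where all M1-CM samples lay above all Ctrl samples for 4.46% of genes and below them for 4.03%. Without Ctrl replicate 1 the log2 fold changes were 5.34, 5.31 and 4.87 (adjusted p = 0.212, 0.146 and 0.437 by edgeR). Between M0-CM and Ctrl, 0 of 3 were called against a background of 0% in each direction, with log2 fold changes of 1.28 (SE 1.59), 1.32 (SE 1.52) and 1.501 (SE 1.49) and adjusted p = 1 by edgeR. These groups overlapped too, against 5.24% of genes wholly above and 3.11% wholly below. Without Ctrl replicate 1 these were 7.24, 7.09 and 6.96, none called. Between M1-CM and M0-CM, 0 of 3 were called against 0.0156% higher and 0% lower, with log2 fold changes of -1.90 (SE 1.62), -1.78 (SE 1.54) and -2.09 (SE 1.52) and adjusted p = 0.989 by edgeR. M1-CM and M0-CM also overlapped, against 3.84% of genes wholly above and 4.03% wholly below. At an unadjusted p under 0.05, 586 genes were higher and 317 lower in M1-CM than in Ctrl, 412 and 157 in M0-CM than in Ctrl and 309 and 189 in M1-CM than in M0-CM, and no member was among them. DESeq2 gave no adjusted p for Gm10800 and Gm10801 in these comparisons and did not call Gm10720. SEs of this size are too large to detect differences of 1 or 2 log2 units.

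**Figure D2:**
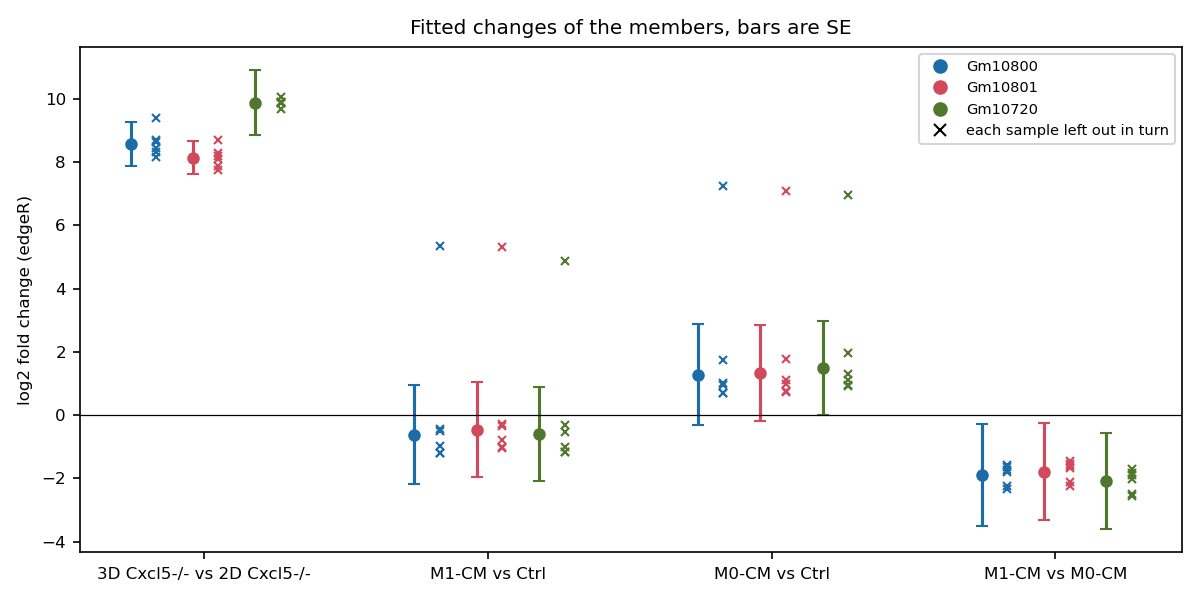
Fitted log2 fold changes of the 3 members in the 4 tested comparisons, with bars of 1 SE and crosses for the same fit with each sample left out in turn. The crosses for 3D against 2D Cxcl5-/- stay between 7.75 and 9.40 for Gm10800 and Gm10801. Those of Gm10720, from 9.68 to 10.06, rest on 0 counts in 2D and are not measured sizes. The crosses against Ctrl include values from 4.87 to 7.24 once Ctrl replicate 1 is left out.

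Wherever the members were high, they stood in similar proportions to each other. In the 3D libraries of the 2D and 3D table there were 49.8 to 61.5 counts of Gm10801 and 0.553 to 0.759 counts of Gm10720 per 1000 counts of Gm10800, although Gm10800 itself spanned 157276 to 9594399 counts. The 3D Cxcl5-/- libraries had 60.6 to 61.5 counts of Gm10801 per 1000 and the 3D WT libraries 49.8 to 52.6, so that these groups did not overlap. In the conditioned medium table, leaving out Ctrl replicate 2, where counts were few, the proportions were 56.3 to 65.4 for Gm10801 and 0.557 to 1.23 for Gm10720. In Ctrl replicate 2 they were 103.8 and 0. The 1.23 for Gm10720 came from 8 counts in Ctrl replicate 3. The other family rows varied to different degrees. Gm10722 stood at 18.0 to 22.5 per 1000 in the 3D libraries and 30.7 to 38.8 in the 8 conditioned medium libraries, and Gm10718 at 5.39 to 5.97 and 5.57 to 6.62. The widest spread in the 3D libraries was that of Gm10717, from 6.94 to 10.2, and in the 8 conditioned medium libraries that of Gm10715, from 0.435 to 1.69. The high end of Gm10715 came from 11 counts in Ctrl replicate 3. The next widest there was Gm10719, from 2.58 to 9.40. Gm21738, which had a row in the conditioned medium table only, stood at 156.1 to 190.5. In the 2D libraries the counts were too few for a proportion of Gm10720, and Gm10801 stood at 61.4 to 107.1 per 1000.

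**Figure D3:**
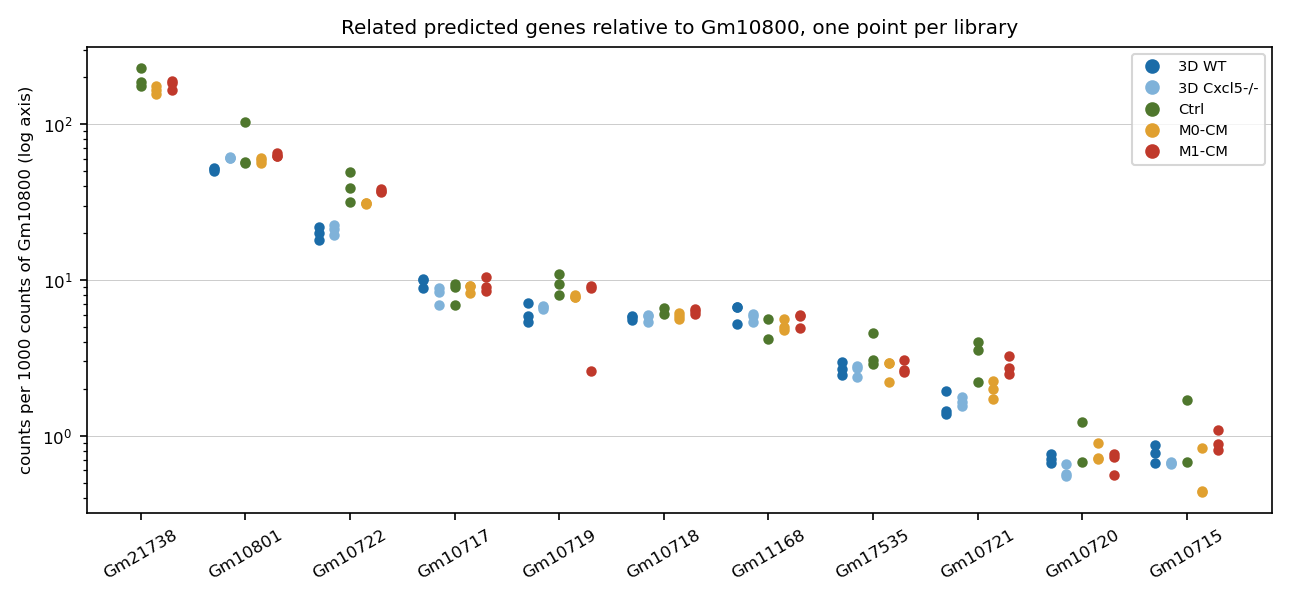
Counts of each related predicted gene per 1000 counts of Gm10800 in the same library, on a log axis, with 1 point per library of the 3D WT, 3D Cxcl5-/-, Ctrl, M0-CM and M1-CM groups. Libraries with 0 counts of a gene, all of them Ctrl replicate 2, are not drawn. Each gene stays within a band across the 3D WT and 3D Cxcl5-/- libraries, the widest from 6.94 to 10.2 for Gm10717, while some neighbouring bands overlap.

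All family rows together took 6.97%, 9.23% and 16.0% of the counts in the 3D WT libraries, 0.370% to 0.478% in 3D Cxcl5-/- and at most 0.00200% in 2D. In the conditioned medium table they took 1.68%, 0.00313% and 0.0146% in Ctrl, 0.341% to 1.79% with M0-CM and 0.293% to 0.492% with M1-CM. The TMM factors were 0.819 to 0.912 in 3D WT against 1.01 to 1.22 in 3D Cxcl5-/- and 0.994 to 1.04 in 2D. The 10 genes with most counts took 26.2% to 31.4% of the 3D WT libraries, 26.9%, 17.8% and 18.7% of the 3D Cxcl5-/- libraries and 14.1% to 15.6% of the 2D libraries.

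Olfactory receptor genes, which these cells are not known to use, served as a measure of background reads. Over 1407 such genes, the summed level was 10.6 to 12.1 CPM in 2D WT, 8.92 to 13.1 in 2D Cxcl5-/-, 72.7 to 114.7 in 3D WT and 23.7 to 27.3 in 3D Cxcl5-/-. It was thus higher in 3D, and highest in the WT spheroids, as the members were. The sizes differed. The ratio of 3D WT to 2D WT was 8.27 for the olfactory receptor sum and 19327 for Gm10800, and that of 3D Cxcl5-/- to 2D Cxcl5-/- was 2.29 and 381.4. The sum included Olfr77, at a mean of 4.37 CPM in this table. Over the 1406 genes with at most 100 counts in every library, the ratios of the sum were 15.4 and 3.27. Per unit of the olfactory receptor sum, Gm10800 stood at 0.279 to 1.23 in 2D, 1010 to 1543 in 3D WT and 108.5 to 155.2 in 3D Cxcl5-/-. More genes were also detected in 3D. At least 1 count was found for 23370 to 24575 genes in 2D, 29547 to 31449 in 3D WT and 27225 to 27639 in 3D Cxcl5-/-. Mitochondrially encoded genes took 0.909% to 1.10% of the counts in 2D, 1.20% to 1.42% in 3D WT and 1.25% to 1.38% in 3D Cxcl5-/-, so that this share was also higher in every 3D library than in any 2D library. The part of such background and of RNA quality in the members' levels was not tested.

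In the conditioned medium table the members and the olfactory receptor sum ranked the libraries differently, in a way that depended on the genes summed. The sum was 29.2, 21.7 and 26.5 CPM in Ctrl, 27.3, 30.7 and 25.2 with M0-CM and 18.7, 51.1 and 27.0 with M1-CM. The library highest in the sum, M1-CM replicate 2, had 2033 CPM of Gm10800, the lowest of its group. The libraries highest in Gm10800, M0-CM replicate 3 at 14361 CPM, M0-CM replicate 1 at 13472 and Ctrl replicate 1 at 12446, had sums of 25.2, 27.3 and 29.2 CPM. Over the 1402 genes with at most 100 counts in every library, without such genes as Olfr805 at a mean of 9.47 CPM, the sum was 17.1, 5.34 and 10.3 CPM in Ctrl, 16.8, 11.7 and 10.8 with M0-CM and 8.62, 26.2 and 10.01 with M1-CM. Ctrl replicate 1 and M0-CM replicate 1, both high in Gm10800, then came next after M1-CM replicate 2, and Ctrl replicate 2 was lowest in this sum as in Gm10800. Ctrl replicate 2, lowest in Gm10800, also had the fewest detected genes, 19448 against 21189 to 23544 in the other 8 libraries. Mitochondrially encoded genes took 0.392% to 0.844% of the counts in this table, with 0.569%, 0.687% and 0.392% in Ctrl. In the rescue table, where the members have no value, the olfactory receptor sum was 454.5 and 459.9 CPM in WT, 58.1 and 61.4 in Cxcl5-/-, 60.5 to 93.0 with mutant Hif1a and 72.3 to 108.8 with Myc.

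**Figure D4:**
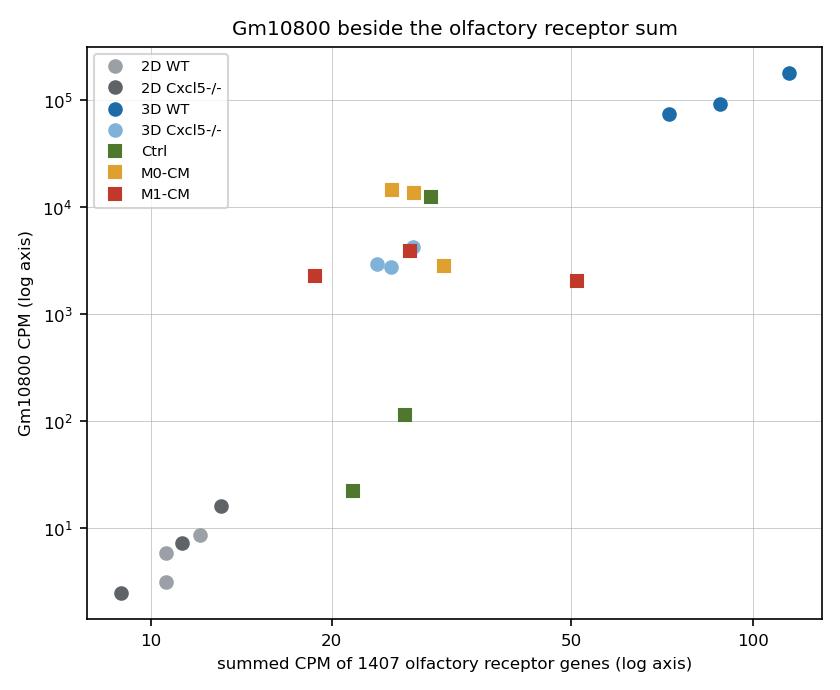
Gm10800 level against the summed level of 1407 olfactory receptor genes, both in CPM on log axes, with 1 point per library (circles for the 2D and 3D table, squares for the conditioned medium table, which was scaled separately). The 3D WT libraries are highest on both axes, while conditioned medium libraries with sums between 18.7 and 51.1 CPM span 22.1 to 14361 CPM of Gm10800.

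The label of pancreatic cancer cells was set against marker genes. The 8 epithelial and pancreatic cancer markers summed to 2076 to 3654 CPM in 2D, 4402 to 5210 in 3D WT and 881.2 to 1053 in 3D Cxcl5-/-, and to 1867 to 3505 in the conditioned medium table. The list includes Vim, so its sum is not one of epithelial genes alone. Of these markers, Epcam and Cdh1 were at 0 in every group of both tables but 3D WT. Krt19 was also at 0 in 2D Cxcl5-/-, and Krt7 in Ctrl. The 6 macrophage markers summed to 1.90 to 7.86 CPM in 2D, 7.34 to 8.85 in 3D WT, 14.6 to 23.8 in 3D Cxcl5-/- and 5.11 to 15.3 in the conditioned medium table. Of these, Adgre1 was at 0 in all 4 groups of the 2D and 3D table. Ptprc and Itgam were at 0 in 2D, but Ptprc had counts in both 3D groups and Itgam in 3D WT. In the conditioned medium table Adgre1 had counts with M0-CM and Ptprc with M1-CM. The 5 fibroblast markers were at 24.6 to 26.6 CPM in 2D WT, 10.2 to 11.8 in 2D Cxcl5-/-, 72.9 to 75.8 in 3D WT, 204.0 to 235.2 in 3D Cxcl5-/- and 275.4 to 377.8 in the conditioned medium table. In the 2D and 3D table and the conditioned medium table, the 3 endothelial markers stayed at or under 0.562 CPM and the 3 acinar markers at or under 2.81. The 5 olfactory neuron markers were at 2.12 to 4.30 and 1.79 to 3.11 CPM in these tables, with Cnga2, a channel subunit of these neurons, at 0 in every group of both. The part of other cells in the members' levels was not tested.

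The genes whose pattern over the 12 libraries of the 2D and 3D table was most like that of each member were found by Pearson r of log2 CPM among 14446 genes, as a description. For Gm10800 the closest were Gm10801 (r = 0.999), Gm10722 (r = 0.998), Gm17535 (r = 0.997), Gm10717 (r = 0.996) and Gm10718 (r = 0.995), all of the family. The next were Il13ra1, a receptor subunit for interleukin 13 (r = 0.995), Gm10719, Ccng2, an unconventional cyclin, Car6, a secreted carbonic anhydrase, and Gipr, the receptor of an incretin hormone (r = 0.994 to 0.993). For Gm10801 the 10 closest were Gm10800, Gm10722, Gm17535, Gm10717, Ccng2, Gm10718, Il13ra1, Car6, Ero1a, an oxidase of the endoplasmic reticulum, and Gipr. For Gm10720 they were Rnf217, Plod2, a collagen lysyl hydroxylase, Il13ra1, Ero1a, Hmox1, the inducible heme oxygenase, Gm17535, Gm10718, the peptide hormone gene Apln, the lipid phosphatase gene Lpin1 and Gm10722, with r from 0.996 to 0.993. These libraries fall into 2D and 3D clusters, 4 groups share the 12 points, and 271 genes reached r of 0.95 with Gm10800, 278 with Gm10801 and 280 with Gm10720. The amplitudes were unlike. The SD of log2 CPM over the 12 libraries was 6.37 for Gm10800 and 1.55 for Il13ra1.

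Over the 9 conditioned medium libraries the family stood together. The 11 other family rows were the 11 genes closest to Gm10800 among 14085, with r from 0.981 to 0.999, and the same held for Gm10801 with r from 0.980 and for Gm10720 with r from 0.984. The closest gene outside the family had r = 0.968 with Gm10800. The family shares sequence, and its rows share their libraries.

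Genes that build, read or silence pericentromeric heterochromatin were listed, 49 in all, of which 47 were tested. In 3D against 2D Cxcl5-/- cells, the comparison in which the members rose, 8 of the 47 rose, 27 fell and 12 did not pass the test, where 28.7% of all genes tested rose and 28.2% fell. The median log2 fold change of the list was -0.56, where that of all genes was 0.109. With library totals in place of TMM scaling 9 rose and 25 fell, with a list median of -0.41, where 32.9% of all genes rose, 23.2% fell and their median was 0.256. Among those that fell were Hells, a chromatin remodeller needed for DNA methylation at repeats, Uhrf1, which brings Dnmt1 to replicated DNA, Aurkb, the mitotic kinase of the centromeric passenger complex, and Dnmt1, the maintenance DNA methyltransferase. Hells went from 298.1 ± 11.98 CPM in 2D Cxcl5-/- to 64.6 ± 1.3 in 3D Cxcl5-/- (SD, n = 3), or -2.21 on the log2 scale with an SE of 0.09 (edgeR, adjusted p = 5.41e-10). Uhrf1 went from 272.3 ± 33.2 to 67.8 ± 4.8 CPM, or -2.01 on the log2 scale with an SE of 0.12 (edgeR, adjusted p = 1.14e-08). Aurkb went from 80.8 ± 3.4 to 20.8 ± 1.1 CPM and Dnmt1 from 280.9 ± 10.4 to 82.7 ± 5.4 CPM, with log2 fold changes of -1.95 (SE 0.09) and -1.76 (SE 0.09) and adjusted p = 1.45e-09 and 3.85e-09 by edgeR. Several of these genes are also known as cell cycle genes, and their part in the members' levels was not tested.

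Those that rose included Kdm4b, a demethylase of the heterochromatin histone mark, Pax9, a transcription factor, and Kmt5c, a histone H4 methyltransferase of pericentromeres. Kdm4b went from 21.3 ± 2.0 CPM in 2D Cxcl5-/- to 85.1 ± 7.5 in 3D Cxcl5-/- (SD, n = 3), or 2.00 on the log2 scale with an SE of 0.13 (edgeR, adjusted p = 3.65e-08), and Pax9 from 3.90 ± 0.43 to 9.47 ± 1.63 CPM, or 1.28 on the log2 scale with an SE of 0.17 (edgeR, adjusted p = 2.76e-05). Kmt5c went from 5.51 ± 0.15 to 11.6 ± 1.8 CPM, or 1.07 on the log2 scale with an SE of 0.16 (edgeR, adjusted p = 6.53e-05). In 3D WT, where the members were highest, Hells stood at 105.2 ± 11.1 CPM, Uhrf1 at 129.2 ± 17.8, Aurkb at 58.8 ± 5.6 and Dnmt1 at 135.8 ± 12.1, between the levels of 2D WT and of 3D Cxcl5-/-. Kdm4b stood at 23.9 ± 1.9 CPM in 2D WT cells and reached 88.6 ± 17.7 in the WT spheroids. In the 3 conditioned medium comparisons 0 of the 47 genes were called, against at most 0.0156% of all genes in either direction, so that this count says nothing particular about the list. Its medians were -0.06 to -0.04.

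**Figure D5:**
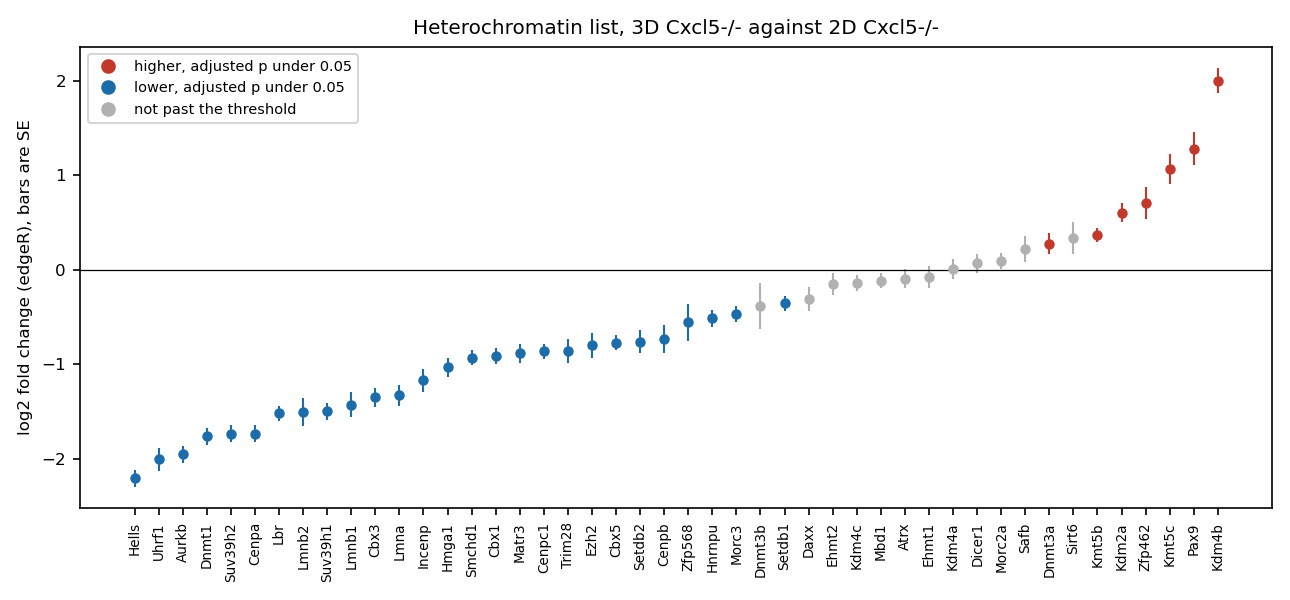
Log2 fold change of 46 of the 47 tested genes of the heterochromatin list in 3D against 2D Cxcl5-/- cells, in order of size, with bars of 1 SE. Red points rose, blue points fell and grey points did not pass an adjusted p under 0.05, and the changes run from -2.21 for Hells to 2.00 for Kdm4b.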

How the data were processed

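Libraries of stranded total RNA were sequenced from mouse pancreatic cancer cells in 31 samples, and the authors aligned the read pairs to GRCm38 with HISAT2 and deposited StringTie gene counts, not normalized, in 3 tables. The annotation release is not given in the sources used here. Of the columns of values, 0 were left unused, and samples were grouped by their labels. The members and all lists were chosen with earlier results of these data known.

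Counts were tested with the quasi-likelihood test of edgeR 4.0.16 (R 4.3.3; TMM, filterByExpr by group, fitted over every group of a table, Benjamini-Hochberg over all genes tested, adjusted p under 0.05). Only comparisons that the choice of members did not use were tested. The SE is the log2 fold change divided by the square root of F. CPM are of the TMM-scaled library, and total counts ran from 41542533 to 78498230 per library. Intervals and floors (3 counts per library) cover counting error only. Log2 CPM for likeness used a prior count of 2 and left out genes whose mean count was under 50. Of the 31 samples, no pair in a table held identical counts.

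Sequences came from GENCODE M21 transcripts. Family genes were those sharing a run of 31 bases with a member in either direction. Olfactory receptor genes were taken by Ensembl ID from GENCODE M21 symbols, since the rescue table uses other names. The genes named followed a rule, namely the members, the related predicted genes, Cxcl5, Hif1a and Myc as label checks, up to 4 genes of the heterochromatin list in each direction with the largest called change, the 10 genes most like each member, and the 3 highest olfactory receptor genes. Of the genes it names, 1 is not reported here. The 6 marker lists enter as sums and counts, and the marker genes named beside them were chosen after their values were seen, as was the likeness over the conditioned medium table.

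Replicate numbers come from the labels. The deviations of same-numbered samples correlated by 0.037 on average in the conditioned medium table and 0.025 in the 2D and 3D table, so the numbers were not taken to pair samples. Alternatives were DESeq2 1.42.0, other scalings and filters, only the groups compared, a replicate block and each sample left out. Scripts were tested on simulated data. In counts simulated for M1-CM against Ctrl, 6.42% of edgeR calls and 30.2% of DESeq2 calls were false. There edgeR recovered 24.2% and DESeq2 45.5% of the changes of 1 log2 unit. Rescue comparisons of the members were not analysed here.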

Additional observations from a re-analysis of the deposited data

How the results depend on the processing

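All 3 members were called in 3D against 2D Cxcl5-/- cells under every alternative that gave them a value, and 0 in the conditioned medium comparisons, where DESeq2 gave no adjusted p for Gm10800 and Gm10801. Requiring at least 10 counts in every sample left no value for Gm10720 and 2 called. With each sample left out in turn, the log2 fold changes in 3D against 2D Cxcl5-/- ran from 8.15 to 9.40 for Gm10800, 7.75 to 8.70 for Gm10801 and 9.68 to 10.06 for Gm10720. For M1-CM against Ctrl they ran from -1.19 to 5.34, -1.03 to 5.31 and -1.16 to 4.87, with the high ends reached without Ctrl replicate 1. With the replicate block, M1-CM against Ctrl reversed to 2.53, 2.41 and 1.63 for Gm10800, Gm10801 and Gm10720 (edgeR adjusted p = 0.937), and the cause was not tested. The block changed no other direction and no call. Library totals moved the median of all genes in 3D against 2D Cxcl5-/- from 0.109 to 0.256. With totals taken without the family rows, an alternative chosen after seeing the data, no direction or call changed. Over all genes, DESeq2 called 69 higher and 29 lower in M1-CM against Ctrl, where edgeR called 3 and 0, 14 and 3 in M0-CM against Ctrl, where edgeR called 0 and 0, and 21 and 13 in M1-CM against M0-CM, where edgeR called 3 and 0. Under the edgeR alternatives these were 1 to 5, 0 to 2 and 1 to 6 higher and 0 lower. The olfactory receptor sum moved beyond 1 SD with only genes of 100 counts or fewer, by construction, to 5.63 CPM in 2D WT, 6.88 in 2D Cxcl5-/-, 22.5 in 3D Cxcl5-/-, 10.9 in Ctrl, 13.1 with M0-CM, 14.95 with M1-CM, 441.4 in rescue WT and 35.2 in rescue Cxcl5-/-, and with library totals to 28.7 in 3D Cxcl5-/-, 500.9 in rescue WT and 67.6 in rescue Cxcl5-/-. Alternatives for the rescue comparisons were not run, since the members have no value there. Depth limits Gm10720 most, with 0 counts in 2D. Its fitted log2 fold changes against 2D are therefore not measured sizes, and only the bound of at least 42.2-fold holds.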

Other observations

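Other sensory receptor families were summed beside the olfactory receptors. Vomeronasal receptor genes stood at 1.53 to 3.91 CPM in 2D, 35.5 to 49.8 in 3D WT and 13.1 to 15.7 in 3D Cxcl5-/-, and taste receptor genes at 5.08 to 6.75, 4.79 to 6.30 and 10.7 to 13.3. In 3D WT the olfactory and vomeronasal sums were thus above 2D while the taste receptor sum overlapped it, and the taste receptor sum was highest in 3D Cxcl5-/-, where the members were well below 3D WT. The taste receptor sum rests on few genes, however. Of 43 taste receptor genes, 3 to 6 had a count in a 2D library, 11 to 13 in 3D WT and 6 to 8 in 3D Cxcl5-/-. By the number of genes detected, this family was thus also highest in 3D WT. The olfactory receptor genes of highest mean level were Olfr77 (4.37 CPM), Olfr1318 (0.775 CPM) and Olfr482 (0.736 CPM) in the 2D and 3D table, Olfr805 (9.47 CPM), Olfr56 (2.40 CPM) and Olfr810 (1.94 CPM) in the conditioned medium table, and Or7d10 (5.46 CPM), Or5p58 (1.36 CPM) and Or2v1 (1.01 CPM) in the rescue table. At least 1 count was found for 595, 639 and 819 of the 1407 olfactory receptor genes in 3D WT, 195 to 274 in 3D Cxcl5-/-, 39 to 70 in 2D and 1286 and 1288 in rescue WT.

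The genes used to check the labels of the rescue table were Cxcl5, Hif1a, which encodes a subunit of the hypoxia-inducible factor, and Myc. Cxcl5 was at 64.2 and 67.7 CPM in WT and 36.6 and 40.2 in Cxcl5-/-. This order went with the label, unlike that of the 3D samples in the 2D and 3D table. Cxcl5 was at 35.5 to 44.8 CPM in the samples labelled mutant Hif1a and 37.8 to 49.1 in those labelled Myc. Hif1a was at 133.4 and 143.9 CPM in Cxcl5-/- and 242.8 to 295.6 in the samples labelled mutant Hif1a. However, it was also at 240.9 to 270.9 CPM in those labelled Myc, and at 303.5 and 323.8 in WT. Hif1a therefore did not tell the mutant Hif1a label from the Myc label. Myc was at 20.01 and 22.3 CPM in Cxcl5-/- and 396.6 to 548.1 in the samples labelled Myc. Its level was 46.0 and 49.3 CPM in WT and 23.0 to 26.8 in those labelled mutant Hif1a.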
